A study of Mus musculus with 17 samples.

Results

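The Btg and Tob genes were read from a table of hippocampal gene counts by matching Ensembl identifiers to the symbols Btg1, Btg2, Btg3, Tob1 and Tob2. All 5 were found, out of 55471 genes in the table, of which 39260 had at least 1 count. The counts came from total RNA of 17 libraries, each from the hippocampus of 1 male C57BL/6 mouse aged 3 to 6 months. CBP-ifKO mice carried floxed Crebbp alleles and a creERT2 recombinase driven by the Camk2a promoter, which in the adult leaves a CBP protein without acetyltransferase activity in forebrain excitatory neurons only, so interneurons, glia and vessels of the dissected tissue kept the intact gene. Controls were creERT2-negative littermates according to the study's methods, although the labels print the creERT2 line for both genotypes, and mice of both genotypes had received tamoxifen. Sal mice (3 Control, 3 CBP-ifKO) never went through kindling and were given saline. PTZ0 mice (3 and 3) had gone through kindling, a course of repeated doses of the GABA-A receptor blocker pentylenetetrazol (PTZ), and received saline 1 week later. PTZ45 mice (2 Control, 3 CBP-ifKO) had the same course and were given 45 mg/kg PTZ, and every hippocampus was taken 45 min after the last injection. Kindled names this dosing in both genotypes and not its outcome: seizures built up during the course in Control and not in CBP-ifKO mice. In every comparison of kindled mice between genotypes, and in the interactions, the genotype and this difference in seizure history cannot be told apart. The study's text does not state which PTZ45 mice had seizures after the last dose. A difference in such seizures between the PTZ45 groups could not be told apart from genotype either. The table also holds a column named like those of Control PTZ45 that matched no sample label and was not used. The design asks which transcripts respond to the last PTZ dose, and whether CBP changes their level at rest or in the response.

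Btg and Tob proteins share an N-terminal domain that binds Cnot7 and Cnot8, the Caf1 deadenylases of the CCR4-NOT complex, and thereby speed the shortening of poly(A) tails and the decay of mRNA. Their other name, antiproliferative proteins, comes from the slower G1 to S passage of dividing cells that overexpress them. Btg2 was first found as an immediate early gene, one whose transcription starts within minutes of a stimulus without new protein synthesis, and it also marks neural progenitors about to make neurons. Adult hippocampal neurons do not divide, and in them Btg2 is known as a gene induced by neuronal activity.

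Libraries held 5831992 to 18735643 counts. Levels are given as normalized counts, the counts divided by DESeq2 size factors over all libraries, and comparisons between genes as normalized counts per kilobase of exon. The Crebbp transcript, the targeted gene, ranged from 1824 to 2429 normalized counts in Control libraries and from 1061 to 1337 in CBP-ifKO libraries, without overlap. Markers of hippocampal excitatory neurons, interneurons, glia, endothelial cells and blood were detected in all groups, and no marker was at 0 throughout. In 5 libraries, 1 in each group except Control PTZ45, the 6 choroid plexus markers summed to 10813 to 44317 normalized counts, against 438 to 1146 in the other 12. Sequencing lane followed the groups in the labels: Control Sal and Control PTZ0 were run in lane 3, CBP-ifKO Sal and Control PTZ45 in lane 4, and both kindled CBP-ifKO groups in lane 5. Lane and group can therefore not be told apart in any comparison other than Control PTZ0 against Control Sal and CBP-ifKO PTZ45 against CBP-ifKO PTZ0. In these bulk samples, fewer cells of a type and less RNA per cell cannot be told apart either.

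The promoters of Btg2, Btg1 and Tob1 are shown because these genes rose after PTZ in Control mice. Each is the stretch of 250 bases upstream of the transcription start in RefSeq (GRCm38.p6), with capitals marking the cAMP response element TGACGTCA, which binds CREB, a factor that recruits CBP, or its shorter core TGACG, read on either strand.
Btg2 promoter, minus strand, chr1:134079156-134079405: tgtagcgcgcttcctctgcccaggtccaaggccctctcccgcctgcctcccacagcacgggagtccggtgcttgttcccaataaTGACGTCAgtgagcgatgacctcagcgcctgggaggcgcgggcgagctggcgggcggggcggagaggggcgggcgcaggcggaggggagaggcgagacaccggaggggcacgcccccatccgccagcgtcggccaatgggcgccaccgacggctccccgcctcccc
Btg1 promoter, plus strand, chr10:96616751-96617000: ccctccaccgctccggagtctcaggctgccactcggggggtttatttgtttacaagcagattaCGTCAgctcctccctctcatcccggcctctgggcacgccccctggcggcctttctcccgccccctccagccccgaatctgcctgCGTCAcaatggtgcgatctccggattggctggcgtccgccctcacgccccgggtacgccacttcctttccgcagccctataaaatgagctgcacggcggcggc
Tob1 promoter, plus strand, chr11:94211204-94211453: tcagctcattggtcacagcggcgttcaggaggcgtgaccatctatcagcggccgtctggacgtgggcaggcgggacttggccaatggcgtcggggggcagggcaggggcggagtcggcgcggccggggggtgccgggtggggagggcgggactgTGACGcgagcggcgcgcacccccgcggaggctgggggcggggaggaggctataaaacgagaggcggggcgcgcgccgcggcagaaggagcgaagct

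The full element occurred once in the Btg2 promoter, with its first base at -166 from the start, and in no other Btg or Tob promoter. On both strands, 1.55% of 32817 RefSeq promoters of the same length held it. The shorter core occurred at -187 and -103 in Btg1 and at -96 in Tob1, whereas its 2 matches in Btg2, at -166 and -163 on opposite strands, lay within the full element. It was found in neither of the 2 Btg3 promoters nor in that of Tob2, and 17.7% of promoters held it. The TATA box TATAAA was found at -26 in Btg1 and -47 in Tob1, and in 12.4% of promoters. The AP-1 site TGANTCA and the CArG box that binds serum response factor were in none of these windows, against 6.75% and 1.47% of promoters. These matches describe letters in a window, and binding was not measured here.

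Btg2 (ENSMUSG00000020423) lies on chromosome 1 (chr1:134075170-134079120, minus strand, GRCm38) with 2743 bases of exon. It read 175, 234 and 219 normalized counts in the 3 Control Sal libraries, 189, 159 and 183 in Control PTZ0, and 3391 and 3032 in Control PTZ45. In CBP-ifKO mice it read 128, 127 and 151 in Sal, 106, 133 and 139 in PTZ0, and 267, 333 and 407 in PTZ45. Both Control PTZ45 libraries stood far above every other library. All 3 CBP-ifKO PTZ45 libraries lay above every Sal and PTZ0 library of either genotype, and none came near the Control PTZ45 level.

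**Figure D1:**
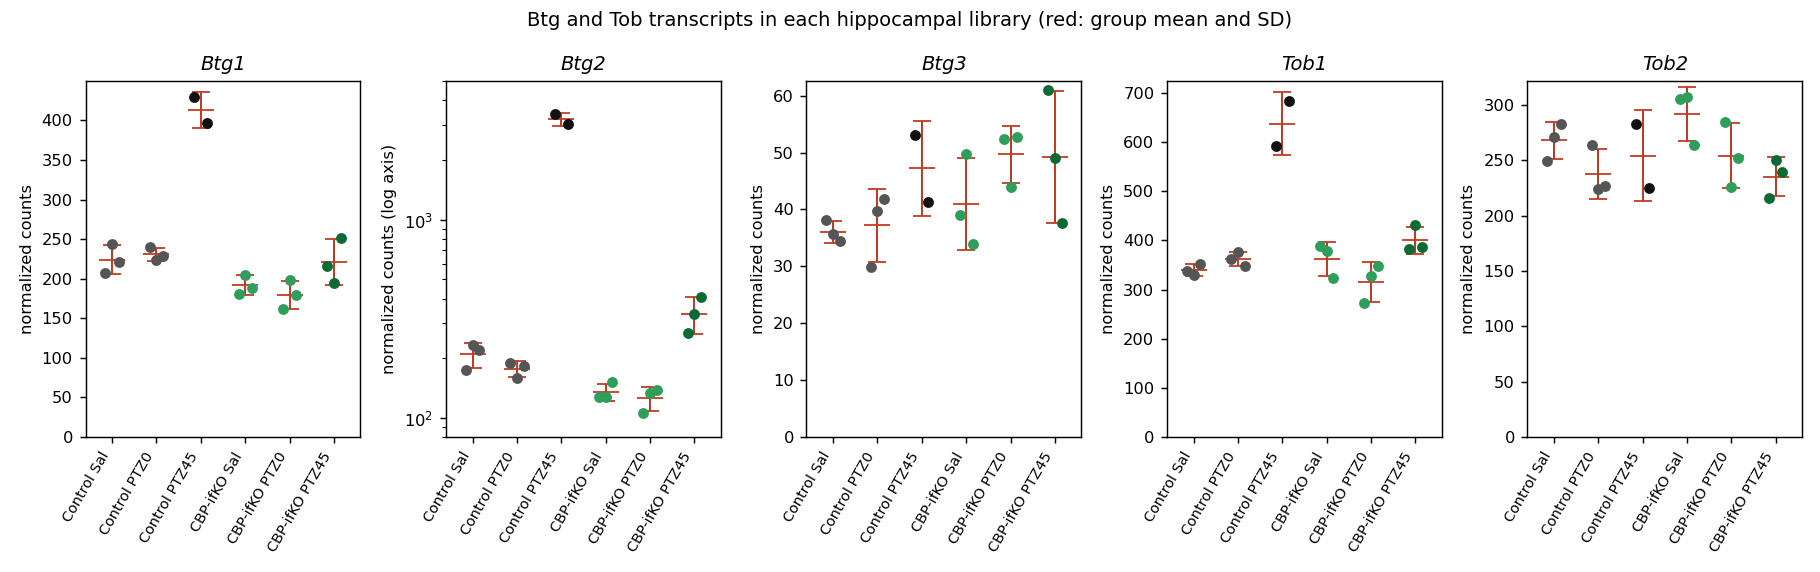
Normalized counts (vertical axes, logarithmic for Btg2 and starting at 0 for the other genes) of the 5 genes in each library of the 6 groups. Points are libraries and red bars show the group mean and SD. Btg1, Btg2 and Tob1 were highest in both Control PTZ45 libraries, and Btg2 rose above its saline levels in CBP-ifKO PTZ45 as well.

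In Control mice Btg2 rose 15.5-fold after PTZ over Sal, from 209 ± 30.9 (SD, n = 3) to 3211 ± 253 (SD, n = 2) normalized counts (log2 fold change 3.95, SE 0.12, DESeq2 adjusted p = 2.51e-233). Its p-value ranked first among the 17367 genes tested, and its fold change was the 7th largest of 163 genes that rose. Over Control PTZ0 the log2 fold change was 4.17 (SE 0.10), an 18-fold rise. In CBP-ifKO mice the rise over Sal was 2.45-fold, from 135 ± 14 to 336 ± 69.9 (SD, n = 3 each; log2 fold change 1.29, SE 0.18, DESeq2 adjusted p = 1.64e-09). Over CBP-ifKO PTZ0 it was 2.65-fold (log2 1.40, SE 0.18, adjusted p = 1.16e-11), a comparison made within lane 5. The responses of both genotypes differed by an interaction of -2.66 on the log2 scale over Sal (95% interval -3.06 to -2.25, DESeq2 adjusted p = 1.58e-33). Over PTZ0 the interaction was -2.78 (-3.15 to -2.40, adjusted p = 3.54e-43). In both interactions Btg2 had the smallest p-value of all genes tested.

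In mice whose last injection was saline, mean Btg2 was also lower in CBP-ifKO than in Control mice, with a call in Sal only. In Sal mice the CBP-ifKO mean was 64.8% of the Control mean and the libraries did not overlap (log2 fold change -0.61, SE 0.18, DESeq2 adjusted p = 0.031). This call was lost without Control Sal replicate 2 (adjusted p = 0.44) or 3 (0.291), without CBP-ifKO Sal replicate 1 (0.253) or 2 (0.179), and without both libraries of this pair of groups that were high in choroid plexus markers (1), within a range of 0.00228 to 1 over 13 alternatives that never changed its sign. In PTZ0 mice the CBP-ifKO mean was 71.1% of the Control mean and the libraries again did not overlap, but the difference was not called (log2 fold change -0.49, SE 0.17, DESeq2 adjusted p = 0.0608). In PTZ45 mice the CBP-ifKO level was 10.4% of that of Controls (log2 fold change -3.26, SE 0.13, adjusted p = 3.79e-128). The order of group means was Control PTZ45, CBP-ifKO PTZ45, Control Sal, Control PTZ0, CBP-ifKO Sal and CBP-ifKO PTZ0, and among neighbours the ranges overlapped between both Control saline groups and between both CBP-ifKO saline groups.

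Tob1, whose protein also carries motifs that bind the poly(A)-binding protein Pabpc1, is ENSMUSG00000037573 and lies at chr11:94211454-94215495 (plus strand, 2288 bases of exon). It read 338, 329 and 353 normalized counts in Control Sal, 363, 377 and 348 in Control PTZ0, and 592 and 683 in Control PTZ45. The CBP-ifKO values were 388, 378 and 324 in Sal, 272, 328 and 349 in PTZ0, and 383, 432 and 386 in PTZ45. Both Control PTZ45 libraries lay above all 15 others, while the CBP-ifKO PTZ45 libraries overlapped those of CBP-ifKO Sal and lay above all 3 of CBP-ifKO PTZ0.

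After PTZ, Tob1 rose 1.87-fold over Sal in Control mice (log2 fold change 0.90, SE 0.13, DESeq2 adjusted p = 9.12e-10) and 1.75-fold over PTZ0 (0.81, SE 0.12, adjusted p = 4.69e-09). In CBP-ifKO mice the log2 fold change was 0.14 over Sal (95% interval -0.11 to 0.40) and 0.33 over PTZ0 (0.08 to 0.59), and neither was called (DESeq2 adjusted p = 1 for both). The interaction over Sal was -0.76 (SE 0.17, DESeq2 adjusted p = 0.0046), and that over PTZ0 was -0.48 (SE 0.17, adjusted p = 0.628) and not called. The call over Sal was lost without the choroid plexus libraries (log2 value -0.73, adjusted p = 0.271) and without Control PTZ45 replicate 2 (-0.65). In the latter fit the remaining Control PTZ45 library is assumed to vary like the other groups. The log2 values ranged from -0.86 to -0.65 over 18 alternatives. Tob1 was lower in CBP-ifKO PTZ45 than in Control PTZ45, at 62.7% of its level (log2 fold change -0.67, SE 0.13, adjusted p = 8.54e-05). Without Control PTZ45 replicate 2 that adjusted p was 0.127, in a range of 1.74e-07 to 0.253 over 12 alternatives.

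Btg1, the closest relative of Btg2 and like it a partner of the arginine methyltransferase Prmt1, is ENSMUSG00000036478 and lies at chr10:96617006-96622809 (plus strand, 5276 bases of exon). It read 207, 244 and 221 normalized counts in Control Sal, 239.6, 224 and 229 in Control PTZ0, and 429 and 397 in Control PTZ45. The CBP-ifKO libraries read 181, 205 and 188 in Sal, 162, 198 and 179 in PTZ0, and 216, 194 and 252 in PTZ45. The 2 Control PTZ45 libraries stood above all others, and the CBP-ifKO PTZ45 libraries overlapped those of both other CBP-ifKO groups. Its pseudogenes Btg1-ps1 and Btg1-ps2 were listed with 0 counts, and reads matching both gene and pseudogene would be lost to the mapping quality filter.

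The rise of Btg1 in Control mice was 1.85-fold over Sal (log2 fold change 0.88, SE 0.15, DESeq2 adjusted p = 7.40e-07) and 1.78-fold over PTZ0 (0.84, SE 0.14, adjusted p = 4.25e-07). In CBP-ifKO mice it was 0.21 over Sal (95% interval -0.11 to 0.53) and 0.29 over PTZ0 (-0.03 to 0.61) on the log2 scale, and not called (DESeq2 adjusted p = 1 for both). The interaction, -0.68 over Sal (-1.08 to -0.27) and -0.55 over PTZ0 (-0.93 to -0.16), was not called either, with DESeq2 adjusted p of 0.249 and 0.72. A difference between genotypes in the response of Btg1 was therefore not shown. Btg1 was 1.87-fold lower in CBP-ifKO than in Control PTZ45 mice (log2 fold change -0.91, SE 0.16, adjusted p = 5.56e-06). In saline-treated mice its CBP-ifKO libraries lay below the Control libraries without overlap, by -0.24 in Sal and -0.36 in PTZ0 on the log2 scale, and neither difference was called (adjusted p = 0.663 and 0.122).

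Tob2 and Btg3 were called in none of the 12 comparisons by DESeq2. Across these comparisons, an unadjusted p under 0.05 occurred once for Tob2 and never for Btg3, and edgeR called neither gene. Tob2, a close relative of Tob1 (ENSMUSG00000048546, chr15:81848272-81858796, minus strand, 6664 bases of exon), had group means from 235 ± 17.6 (SD, n = 3) in CBP-ifKO PTZ45 to 292 ± 24.4 (SD, n = 3) in CBP-ifKO Sal, and its neighbouring groups all overlapped. Its log2 fold change after PTZ over Sal was -0.07 in Control mice (95% interval -0.39 to 0.25) and -0.31 in CBP-ifKO mice (-0.60 to -0.02, DESeq2 adjusted p = 1). Those CBP-ifKO libraries did not overlap. For Tob2 a rise in Control mice of the size seen in Tob1 lay outside the interval.

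Btg3, which encodes a family member that binds E2f1 (ENSMUSG00000022863, chr16:78332637-78377192, minus strand, 4014 bases of exon), was scarce, with 24 to 67 raw counts per library. Its group means ran from 36.1 ± 1.94 (SD, n = 3) normalized counts in Control Sal to 49.7 ± 5.01 (SD, n = 3) in CBP-ifKO PTZ0, and neighbours in this order overlapped. After PTZ its log2 fold change was 0.39 in Control mice (95% interval -0.31 to 1.08) and 0.31 in CBP-ifKO mice (-0.33 to 0.94), and the first interval includes the rise of Btg1. The Control PTZ45 libraries, at 53.1 and 41.3, lay above those of Control Sal, at 38.2, 35.7 and 34.4. In PTZ0 mice, Btg3 was higher in all 3 CBP-ifKO libraries than in any Control library (log2 fold change 0.42, SE 0.30), a difference for which DESeq2 gave no adjusted p. Exons of Btg3 overlap those of Cxadr on the opposite strand, and because the sources do not say whether strand was used in counting, some of its reads may belong to Cxadr. Btg4, the remaining family member, which is known from oocytes, had 14 counts over all libraries, too few to describe.

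**Figure D2:**
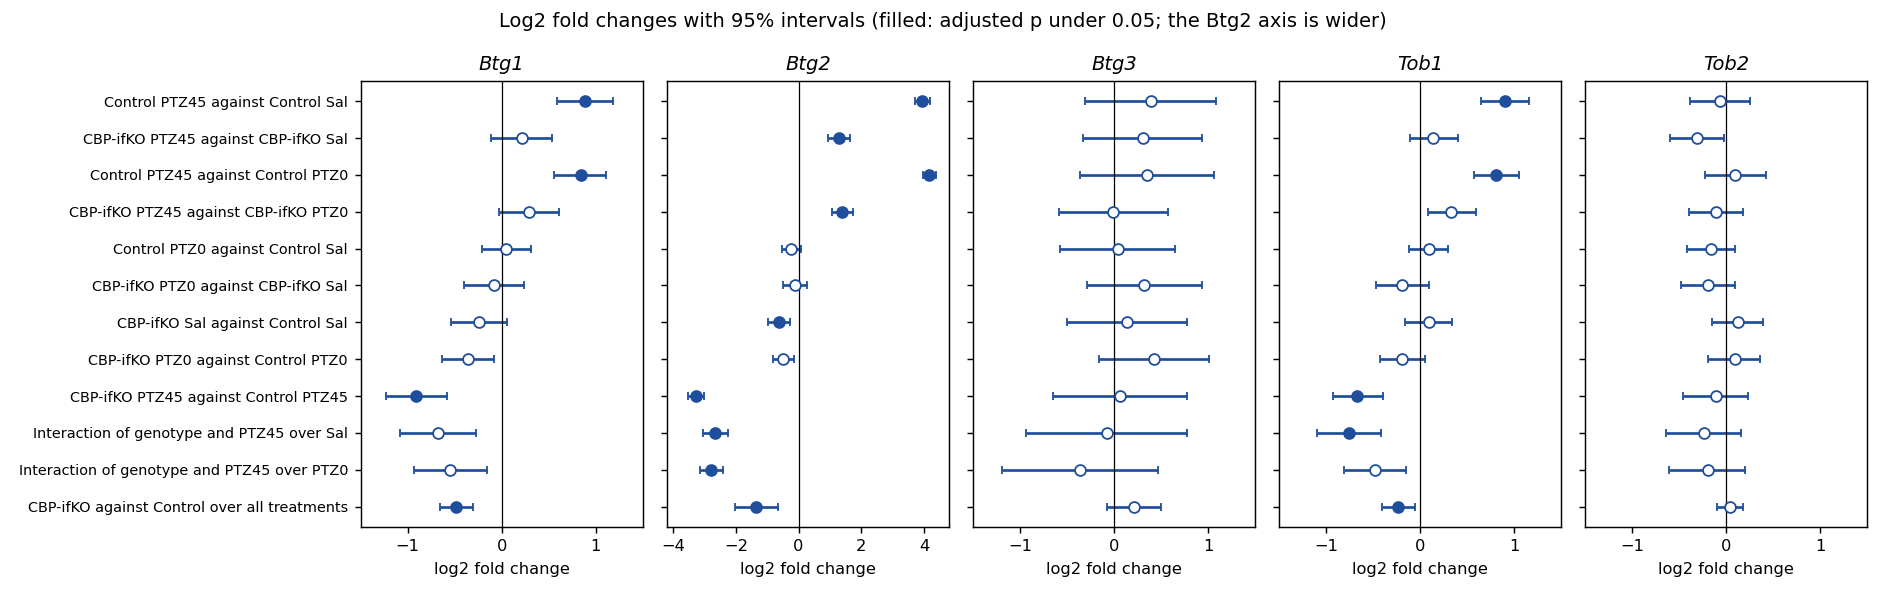
Log2 fold changes (horizontal axes, with a wider range for Btg2) of each gene in the 12 comparisons. Bars are 95% intervals from DESeq2, and filled points passed an adjusted p of 0.05. All filled points of Btg1 and Tob1 belong to comparisons that include the Control PTZ45 group, and Btg3 and Tob2 have none.

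By comparison, 3 of the 5 genes rose in Control PTZ45 over Control Sal, against 0.939% of all genes tested, and 3 over Control PTZ0, against 1.18%. The same 3 genes, Btg1, Btg2 and Tob1, were named by both, which share the Control PTZ45 libraries. In CBP-ifKO mice 1 of 5 rose over Sal (0.086% of all genes) and 1 over PTZ0 (0.0607%), in each case Btg2. The median log2 fold change of the 5 genes was 0.88 in Control and 0.21 in CBP-ifKO mice over Sal, where the median over all genes tested lay within 0.01 of 0. The kindling course alone, PTZ0 against Sal, called 0 of 5 in either genotype by DESeq2 (0.00843% of all genes in Control and 0.0112% in CBP-ifKO mice), with 0 at an unadjusted p under 0.05 and 0 by edgeR. The 95% intervals allowed log2 fold changes of Btg2 from -0.53 to 0.07 in Control and from -0.49 to 0.28 in CBP-ifKO mice.

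Between genotypes, 1 of 5 genes was lower in CBP-ifKO Sal (1.77% of all genes), 0 of the 4 with an adjusted p in PTZ0 (5.25%) and 3 of 5 in PTZ45 (2.82%). The 0 of 4 in PTZ0 stands beside 2 genes, Btg1 and Btg2, at an unadjusted p under 0.05 and 1, Btg2, called by edgeR. Over all treatments in 1 fit with treatment as a term, 3 of 5 were lower in CBP-ifKO mice (11.5% of all genes), namely Btg2 (log2 fold change -1.35, SE 0.35, DESeq2 adjusted p = 0.00128), Btg1 (-0.49, SE 0.09, 3.41e-06) and Tob1 (-0.24, SE 0.09, 0.0457). Tob1 lost this call when any of 10 single libraries was left out, Control PTZ45 replicate 2 giving the highest adjusted p of 0.173, in a range of 0.000907 to 0.173 over 24 alternatives. The fit over all treatments gives 1 genotype value for all of them. By treatment, the Tob1 log2 difference was 0.09 in Sal (SE 0.13) and -0.19 in PTZ0 (SE 0.12), neither called. In PTZ45 it was -0.67 (SE 0.13), the only one of these called. The interaction over Sal called 2 of 5 as smaller in CBP-ifKO mice (0.329% of all genes) and that over PTZ0 called 1 (0.423%). None of the 5 was called higher in CBP-ifKO mice in any of these fits.

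Levels per kilobase of exon put Tob1 first in every group except Control PTZ45, where Btg2 was first. In Control Sal, Tob1 stood at 149 ± 5.25 normalized counts per kilobase (SD, n = 3), above 90.6% of the genes with a count, followed by Btg2 at 76.2 ± 11.3, Btg1 at 42.5 ± 3.49, Tob2 at 40.2 ± 2.56 and Btg3 at 8.99 ± 0.483. Btg1 and Tob2 did not differ beyond their spread. In Control PTZ45, Btg2 reached 1171 ± 92.3 per kilobase (SD, n = 2), above 99.5% of genes, while Tob1 stood at 279 ± 28.4 and Btg1 at 78.2 ± 4.33. The sum of the 5 genes went from 316 ± 16.3 to 1578 ± 76.5 per kilobase in Control mice. In CBP-ifKO mice it went from 298 ± 15.6 in Sal to 387 ± 29.8 in PTZ45 (SD, n = 3 each).

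**Figure D3:**
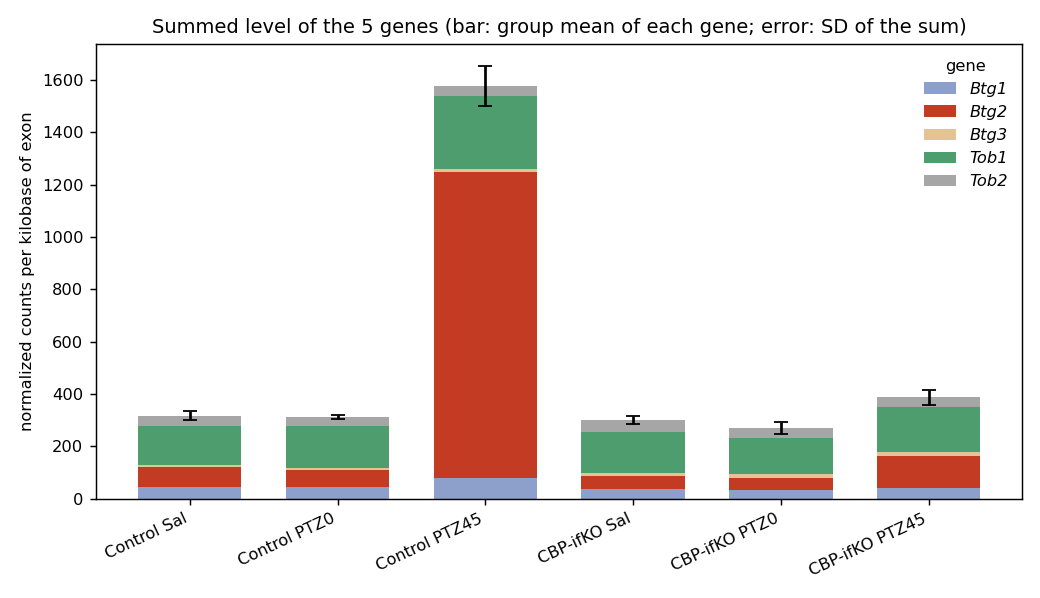
Summed level of the 5 genes (vertical axis, normalized counts per kilobase of exon, from 0) in the 6 groups. Colored segments are group means of each gene and the error bar is the SD of the sum. Btg2 made up 74.2% of the sum in Control PTZ45.

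Btg2 made up 24% ± 2.47 (SD, n = 3) of this sum in Control Sal and 74.2% ± 2.25 (SD, n = 2) in Control PTZ45. In CBP-ifKO mice its share went from 16.6% ± 2.65 to 31.5% ± 4.36 (SD, n = 3 each), where Tob1 remained the most abundant of the 5 genes at 45.4% ± 3.69. The family was thus led by Btg2 in Control PTZ45 and by Tob1 in each of the other 5 groups.

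The partners through which these proteins act on mRNA are given next. None of the 11 CCR4-NOT genes was called after PTZ over Sal by DESeq2 in either genotype, and 0 were by edgeR. An unadjusted p under 0.05 occurred for 1 in Control and 2 in CBP-ifKO mice. In either direction, DESeq2 called 204 of 17367 genes tested in Control and 58 of 19757 in CBP-ifKO mice. Cnot7, a deadenylase bound directly by Btg and Tob proteins, stood at 1297 ± 76.2 normalized counts in Control Sal (SD, n = 3) and 1427 ± 86.4 in Control PTZ45 (SD, n = 2; log2 fold change 0.13, SE 0.10, adjusted p = 0.858). For its paralogue Cnot8 the change was 0.01 on the log2 scale (SE 0.12, adjusted p = 0.996). Between genotypes over all treatments, 3 of the 11 were higher in CBP-ifKO mice, namely Cnot3 (0.29, SE 0.08), the scaffold Cnot1 (0.09, SE 0.03) and Cnot10 (0.11, SE 0.04), against 7.76% of all genes, and edgeR called 1 of 11. In PTZ0 mice Cnot3 was the one gene of this list higher in CBP-ifKO than in Control mice (0.38, SE 0.12, adjusted p = 0.0321).

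Of 6 genes for poly(A)-binding proteins and other deadenylases, Pabpc1, the cytoplasmic poly(A)-binding protein contacted by Tob1 and Tob2, rose after PTZ in Control mice. It went from 634 ± 65.1 in Sal (SD, n = 3) to 890.3 ± 66.7 normalized counts in PTZ45 (SD, n = 2; log2 fold change 0.49, SE 0.12, DESeq2 adjusted p = 0.00595). In CBP-ifKO mice its log2 fold change was -0.06 (SE 0.14, adjusted p = 1), and the interaction of -0.55 (SE 0.19) was not called by DESeq2 (adjusted p = 0.744) but was by edgeR (0.0163). Pabpc1 was lower in CBP-ifKO than in Control PTZ45 mice (-0.42, SE 0.13, adjusted p = 0.0406). The nuclear poly(A)-binding protein gene Pabpn1 was higher in CBP-ifKO mice over all treatments (0.28, SE 0.06, adjusted p = 5.94e-05). The 6 other named partners, among them Prmt1 and the Smads bound by Tob proteins, had no call in any comparison by DESeq2. After PTZ over Sal, 0 stood at an unadjusted p under 0.05 and 0 were called by edgeR in either genotype. In that comparison DESeq2 called 204 of 17367 genes tested in Control and 58 of 19757 in CBP-ifKO mice. Prmt1 had a log2 fold change of -0.11 (SE 0.14) after PTZ in Control mice.

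Cell cycle genes come next, since Btg and Tob proteins slow the G1 to S passage of dividing cells that overexpress them. After PTZ over Sal, DESeq2 called 204 of 17367 genes tested in Control mice and 58 of 19757 in CBP-ifKO mice, in either direction. At such shares, lists this short would be expected to hold few or no calls. Of 12 G1 genes, 0 were called in either genotype by DESeq2 and by edgeR, with 0 in Control and 1 in CBP-ifKO mice at an unadjusted p under 0.05. Of 9 genes of dividing cells, 5 in Control and 6 in CBP-ifKO mice had enough counts for an adjusted p, and 0 of these were called by either tool, with 0 at an unadjusted p under 0.05. Cyclin D1 (Ccnd1), a transcript lowered by Btg2 in other cells, was lower in CBP-ifKO mice, with log2 fold changes of -0.51 (SE 0.14, DESeq2 adjusted p = 0.0125) in Sal and -0.48 (SE 0.13, 0.0061) in PTZ0. In PTZ45 mice its difference was -0.29 (SE 0.17, adjusted p = 0.59) and not called. Its change after PTZ in Control mice was -0.11 (SE 0.16, adjusted p = 0.973). Over all treatments Ccnd1 (-0.44, adjusted p = 1.26e-09) and the cell cycle inhibitor gene Cdkn1a (-1.01, 0.000378) were lower in CBP-ifKO mice and Ccne2 (0.29, 0.00461) was higher, which makes 2 of 12 G1 genes lower, against 11.5% of all genes, and 1 higher, against 7.76%. Cdkn1a was scarce, with group means from 6.68 normalized counts in CBP-ifKO PTZ0 to 23.7 in Control PTZ45. Between genotypes within Sal, PTZ0 or PTZ45, DESeq2 gave Cdkn1a no adjusted p. Of the 6 genes of dividing cells with an adjusted p over all treatments, 1, Mki67, was lower (-0.34, 0.0096), against 11.5% of all genes. These 6 ranged from -0.35 to 0.60 with a median of -0.09.

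The 12 rapid immediate early genes, a list chosen with earlier results of these data known, gave a scale for the response of Btg2. All 12 rose in Control PTZ45 over Sal, against 0.939% of all genes tested. Their log2 fold changes ran from 1.20 to 6.16, with a median of 2.96. In CBP-ifKO mice 8 of 12 rose, against 0.086% of all genes, with a median of 0.92. The 3.95 of Btg2 in Control mice lay above the Junb value of 2.52 (SE 0.13) and the Dusp1 value of 2.84 (SE 0.17), and below Egr2 (5.11, SE 0.31) and Fosb (6.00, SE 0.44). In CBP-ifKO mice the 1.29 of Btg2 stood beside 2.91 (SE 0.26) for Fos, 2.28 (SE 0.28) for Npas4, 1.45 (SE 0.23) for Dusp1 and 0.71 (SE 0.13) for Egr1. The interaction over Sal was called for 11 of these 12 genes by DESeq2, against 0.329% of all genes, and for 12 by edgeR. Each of these responses was smaller in CBP-ifKO mice. The interaction was -4.57 for Fosb, -3.88 for Npas4, -2.91 for Egr4 and -2.28 for Junb, beside the -2.66 of Btg2. The gene not called by DESeq2 was Gadd45b, at -1.09 (SE 0.33, adjusted p = 0.248, and 0.0461 by edgeR).

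**Figure D4:**
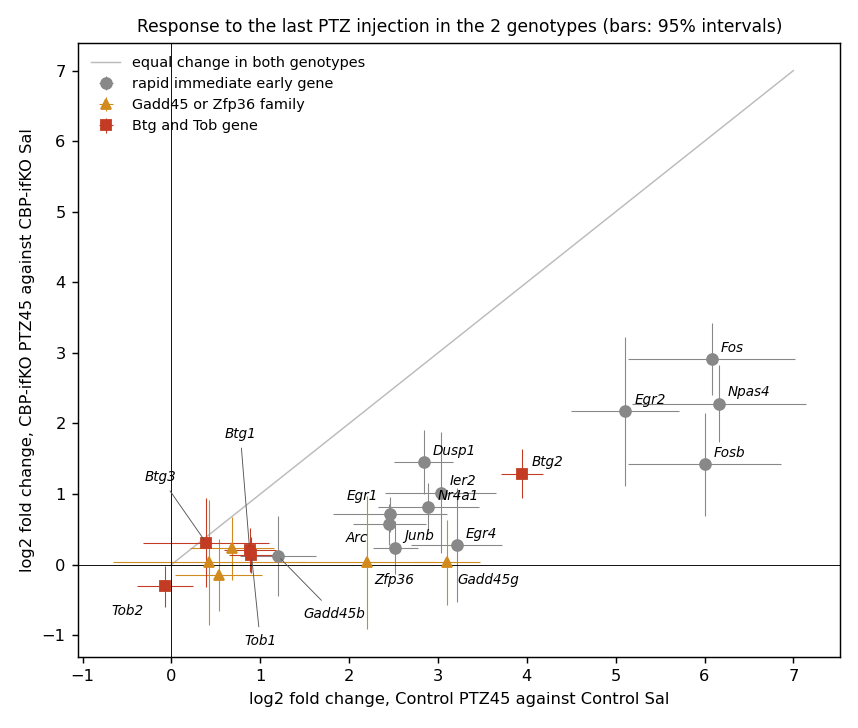
Log2 fold change of PTZ45 over Sal in Control (horizontal axis) and CBP-ifKO mice (vertical axis) for the Btg and Tob genes, the rapid immediate early genes and the other genes of the Gadd45 and Zfp36 families. Bars are 95% intervals and the grey line marks equal change. Btg2 sits at 3.95 and 1.29, below the line and among the immediate early genes, while Btg1 and Tob1 sit at 0.88 and 0.90 on the horizontal axis.

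The Gadd45 and Zfp36 families, of 3 genes each, also hold members induced by neuronal activity. In the Gadd45 family, Gadd45g, which acts in growth arrest and DNA demethylation, rose in Control mice by 3.10 (SE 0.19, DESeq2 adjusted p = 1.63e-56) while in CBP-ifKO mice its change was 0.03 (SE 0.31, adjusted p = 1), with an interaction of -3.07 (SE 0.31, adjusted p = 4.41e-19). In the Zfp36 family, which like Btg and Tob proteins recruits CCR4-NOT to mRNA, Zfp36 rose in Control mice by 2.20 (SE 0.39, adjusted p = 2.70e-06) and not in CBP-ifKO mice (0.03, SE 0.48, adjusted p = 1), and its interaction of -2.15 (SE 0.59) missed the threshold by DESeq2 (adjusted p = 0.0689) and passed it by edgeR (0.000155). Gadd45b rose in Control mice by 1.20 (SE 0.22, adjusted p = 8.81e-06), and Zfp36l1 rose there over PTZ0 by 0.94 (adjusted p = 0.0237). None of the 6 genes was called by DESeq2 or edgeR after PTZ over Sal in CBP-ifKO mice (0 at an unadjusted p under 0.05). There DESeq2 called 58 of 19757 genes tested. Btg2 was called there, although the difference between Btg2 and these 6 genes was not tested.

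Across the 17 libraries, the pattern of each gene was compared with 13041 genes that had a mean of at least 50 normalized counts, by Pearson correlation of log2(normalized count + 1). Nearest to Btg2 were Nr4a1 (r = 0.98), Fosb (0.98) and Arc (0.97), all activity-regulated genes. Without the 2 Control PTZ45 libraries these values were 0.87, 0.82 and 0.79 over 15 libraries. Nearest to Btg1 were Rheb, a small GTPase upstream of mTORC1 (0.97), the nuclear receptor gene Nr4a2 (0.97) and Zfand5 (0.95), and without Control PTZ45 0.86, 0.85 and 0.74. Nearest to Tob1 were Ppp1r15a, which encodes an eIF2 alpha phosphatase subunit (0.95), Tiparp (0.92) and Gm42856 (0.92), which fell to 0.74, 0.62 and 0.68. For Btg3 they were P2ry14 (0.91), Med13 (0.89) and Gm44831 (0.88), and for Tob2 they were Rbm14 (0.87), Tmem184b (0.85) and Gm19605 (0.84). These correlations describe libraries that share 1 scaling and the groups above, and by rank correlation 1 of the 3 nearest genes was shared for each member.

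Some markers of other cells moved with the comparisons above. The 5 blood cell markers summed to 1410.3 to 1709 normalized counts in Control PTZ45, above the 953 to 1168 of Control Sal, and to 887 to 1726 in CBP-ifKO PTZ45. Among them the hemoglobin gene Hbb-bs rose in Control PTZ45 over Sal (0.62, DESeq2 adjusted p = 9.53e-05). In the same comparison the 6 microglia markers summed to 2778 to 3014 against 3071 to 3217, and the interneuron markers to 6659 to 6799 against 6569.9 to 6620.3, both without overlap. In Sal mice the 6 astrocyte markers summed to 17269.8 to 19915 in CBP-ifKO against 21053 to 21888 in Control libraries, and the 6 interneuron markers to 5752 to 6128 against 6569.9 to 6620.3. In PTZ0 mice the astrocyte sums again did not overlap (18391 to 20077 against 21229 to 21697), while the interneuron sums did (5800.3 to 6484 against 6438 to 6628). In PTZ45 mice the interneuron sums did not overlap (6064 to 6353 against 6659 to 6799), while the astrocyte sums did (17887 to 21858 against 20173 to 21937). The summed level of the 8 excitatory neuron markers overlapped between genotypes in each treatment, but single markers moved. Wfs1, which marks CA1 neurons, was lower in CBP-ifKO mice by -0.92, -1.25 and -1.15 on the log2 scale in Sal, PTZ0 and PTZ45 (DESeq2 adjusted p = 1.15e-09, 3.15e-24 and 5.09e-15). In PTZ0 mice Spink8 was also lower (-0.64, DESeq2 adjusted p = 0.00456) and Prox1, which marks dentate granule cells, was higher (0.34, adjusted p = 0.000513). Over all treatments 3 of the 8 were lower, against 11.5% of all genes, and 1 was higher, against 7.76%. The part of these shifts in the levels of Btg1, Btg2 and Tob1 was not tested. Leaving out the choroid plexus libraries, an alternative chosen after seeing the data, removes only Control Sal replicate 2 from Control PTZ45 over Sal, and Btg1, Btg2 and Tob1 were again called there.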

How the data were processed

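Per the labels and the study's methods, the authors trimmed 50-base single-end reads with Trim Galore 0.6.4, aligned them to GRCm38 (mm10) with STAR 2.6.1, kept reads with mapping quality above 10, counted them on Ensembl release 99 exons with Rsubread and deposited raw counts per gene. Whether strand was used is not given in the sources used here. Of 18 count columns, 1, named like those of Control PTZ45, matched no sample and was not used. Coordinates came from GENCODE M21, which held 99.6% of the gene identifiers.

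Each pair of groups was fitted alone with DESeq2 1.42.0 (R 4.3.3, two-sided Wald test, Benjamini-Hochberg adjustment over all genes tested), and a gene was called at an adjusted p under 0.05. Interactions of genotype and PTZ45 were fitted over Sal and over PTZ0, and genotype over all 17 libraries with treatment as a term. Alternatives were edgeR 4.0.16 (quasi-likelihood test), TMM size factors, a low-count filter (10 or more counts in 2 or more libraries), 1 fit of 17 libraries, a correction for GC content, a replicate block and leaving out each library. Leaving out libraries with over 5000 normalized counts of choroid plexus markers was added after seeing the data. Replicates differed beyond sampling noise (chi-square per degree of freedom 2.31 to 18.01 over 16 pairs). The scripts were tested on simulated data. From each pathway list, every called gene was named where 4 or fewer were called, and otherwise the 4 with the smallest adjusted p, in the comparisons described. Direct binding partners of the Btg and Tob proteins were also named. For likeness, the 3 nearest genes were named. The members and lists were chosen with earlier results of these data known.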

Additional observations from a re-analysis of the deposited data

Results flagged for a closer look

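The response to PTZ differed between genotypes by a test of the difference itself for Btg2 over Sal (interaction -2.66 on the log2 scale, SE 0.21, DESeq2 adjusted p = 1.58e-33) and over PTZ0 (-2.78, SE 0.19, adjusted p = 3.54e-43), and for Tob1 over Sal (-0.76, SE 0.17, adjusted p = 0.0046). The Btg2 interactions were called under all 18 alternatives, with values from -2.82 to -2.52 over Sal and from -2.94 to -2.62 over PTZ0. That of Tob1 was not called under 3 of 18, and over PTZ0 it was -0.48 and not called. In each of these fits the Control PTZ45 group held 2 libraries and was run in another lane than CBP-ifKO PTZ45, so lane and group cannot be told apart.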

How the results depend on the processing

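Of 853 alternative values for 60 gene results, 811 kept their direction and their side of the threshold, 24 lost a call, 2 gained one and 16 changed sign, none of these in a called result, and 17 others had no adjusted p. Among called members, the number in CBP-ifKO Sal against Control Sal was 1 and became 0 with the choroid plexus libraries left out and 0 with the replicate block, and 0 to 1 when single libraries were left out. In CBP-ifKO PTZ0 against Control PTZ0 it was 0 and became 1 by edgeR and 1 in 1 fit of 17 libraries, in both cases Btg2 (adjusted p = 0.0233 and 0.0359). For the interaction over Sal it was 2 and became 1 with the choroid plexus libraries left out and 1 with the replicate block, and 1 to 2 with single libraries left out. The cause was not tested. Sign changes concerned Btg3 and Tob2. Without the choroid plexus libraries, log2 values became 0.04 (Btg3, CBP-ifKO PTZ45 over PTZ0), -0.02 (Btg3, Control PTZ0 over Sal) and -0.01 (Tob2, genotype over all treatments), and with the block the Btg3 interaction over Sal became 0.01. With single libraries left out, Tob2 ranged from -0.25 to 0.08 in Control PTZ45 over Sal and from -0.27 to 0.06 between genotypes in PTZ45. Btg3 ranged from -0.19 to 0.14 in CBP-ifKO PTZ45 over PTZ0, from -0.06 to 0.18 in Control PTZ0 over Sal, from -0.12 to 0.26 between genotypes in PTZ45 and from -0.26 to 0.12 in the interaction over Sal. Replicate numbers did not pair the samples, as deviations of same-numbered libraries correlated from -0.52 to 0.48 over 13041 genes. The block ended calls of Btg1 in Control PTZ45 over Sal (adjusted p = 0.142) and over PTZ0 (0.0704), of Btg2 in Sal (0.317) and of Tob1 between genotypes in PTZ45 (0.253), in the interaction over Sal (0.0689) and over all treatments (0.0643). Over all genes, edgeR called 607 against 204 by DESeq2 in Control PTZ45 over Sal, 218 against 58 in CBP-ifKO PTZ45 over Sal, 773 against 225 and 101 against 23 over PTZ0, 85 against 3 and 21 against 4 for the kindling course alone, 828 against 306, 1428 against 852 and 972 against 468 between genotypes in Sal, PTZ0 and PTZ45, and 121 against 69 and 185 against 82 for the interactions over Sal and PTZ0. The choroid plexus alternative called 121, 80, 160, 223 and 1870 in Control PTZ45 over Sal, between genotypes in Sal, PTZ0 and PTZ45, and over all treatments (3606 in full). It called 38 and 8 in CBP-ifKO PTZ45 over Sal and over PTZ0, and 36 and 49 for the interactions. The block called 73 and 94 in Control PTZ45 over Sal and PTZ0, 8 in CBP-ifKO PTZ45 over PTZ0, 2 for the kindling course in CBP-ifKO mice, and 122, 410 and 102 between genotypes in Sal, PTZ0 and PTZ45. The single fit of 17 libraries called 91 in CBP-ifKO PTZ45 over Sal, 0 for the kindling course in each genotype, and 614 and 785 between genotypes in Sal and PTZ45, and the GC correction called 21 in CBP-ifKO PTZ45 over Sal. Leaving out single libraries gave 109 to 164 in Control PTZ45 over Sal and 133 to 499 over PTZ0, 16 to 92 and 16 to 23 in CBP-ifKO PTZ45 over Sal and PTZ0, 0 to 20 and 2 to 5 for the kindling course in Control and CBP-ifKO mice, 127 to 620, 327 to 913 and 153 to 365 between genotypes in Sal, PTZ0 and PTZ45, and 38 to 66 and 50 to 79 for the interactions, so the shares of all genes printed beside the members move with single libraries. By rank correlation, 1 of 3 nearest genes was shared for each of the 5 genes. A fit without a Control PTZ45 library leaves 1, assumed to vary like the other groups, and Btg3, at 24 to 67 raw counts, was the member most limited by depth.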
